A study of Mus musculus with 2 samples.

Results

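Smooth muscle myosin and the enzymes that phosphorylate and dephosphorylate its light chain were examined in the tunica muscularis of the mouse jejunum, the muscle coat peeled off the mucosa of this stretch of small bowel. The genes were taken by symbol from the mRNA-seq table: the heavy chains *Myh11*, *Myh9* and *Myh10*, the light chains *Myl6* and *Myl9*, the kinase *Mylk*, and *Ppp1r12a*, *Ppp1r12b*, *Ppp1cb* and *Ppp1r14a* of the myosin phosphatase. All 10 were found among the 18159 genes listed. The study had 1 mRNA library from *Dnmt1*-WT mice and 1 from *Dnmt1*-KO mice, both of 15 days of age on a C57BL/6 background. Both genotypes carry a Cre and eGFP transgene driven by a *Myh11* promoter, so that the controls express Cre in smooth muscle too. In *Dnmt1*-KO mice this Cre removes a floxed part of *Dnmt1* in smooth muscle cells (SMC), from before birth. The strain label of both samples names Dnmt1lox/lox, and the free-text description of both names the knockout, so the genotype label and the title set the groups. Expression is given as FPKM, a fragment count taken per length of transcript and per total of mapped fragments, a scale on which levels of different genes can be compared per length. The study's methods give males and females of each genotype for RNA without stating whether they were pooled. The tissue is a whole muscle coat, so fewer SMC and less RNA per SMC cannot be told apart. With 1 library per genotype no difference below has a replicate check, an error or a p-value, and the read counts behind each FPKM are unknown.

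Smooth muscle contracts when calcium-bound calmodulin activates myosin light chain kinase, encoded by *Mylk*, which phosphorylates the regulatory light chain and so switches on the motor. Myosin phosphatase reverses this step: a PP1 catalytic subunit is held on myosin by a targeting subunit, and the inhibitor CPI-17, encoded by *Ppp1r14a*, restrains it. *Myh11* is the heavy chain particular to mature smooth muscle, while *Myh9* and *Myh10* encode the non-muscle myosin heavy chains found in most cell types. Many contractile genes of smooth muscle are switched on by serum response factor (SRF), which binds the CArG box.

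Promoter sequence was looked at because SRF binds these elements and because most of the 10 genes had less FPKM in *Dnmt1*-KO. RefSeq promoter windows on GRCm38.p6, running from 250 bases before to 50 bases after a transcription start, were given for 9 of the 10 genes, in 11 windows. The gene without a window was *Myh11*, so its promoter was not searched. A CArG box, searched as a motif that reads the same on both strands, was in 2 of these windows, one of *Myl9* and one of *Myl6*. Of all 32851 windows, 1.63% hold one. The *Myl9* box begins 161 bases before the start on the plus strand of chromosome 2, and the stretch shown (chr2:156775214-156775419) ends before the first annotated exon. The *Myl6* box lies 50 bases before an internal start on the minus strand of chromosome 10 (chr10:128493040-128493069), inside exonic sequence of other *Myl6* transcripts, and the window of the upstream *Myl6* start held none. The *Ppp1r12a* window (chr10:108161848-108162097, plus strand) and the *Myh9* window (chr15:77842176-77842425, minus strand) are shown beside them as genes that were lower and higher in *Dnmt1*-KO and whose windows do not hold these letters. Capitals mark the CArG box and all sequences run 5′ to 3′.
Myl9: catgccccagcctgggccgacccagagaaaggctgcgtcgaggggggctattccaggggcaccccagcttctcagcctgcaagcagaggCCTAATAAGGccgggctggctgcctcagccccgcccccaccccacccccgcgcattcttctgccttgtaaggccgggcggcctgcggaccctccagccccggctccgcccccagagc
Myl6: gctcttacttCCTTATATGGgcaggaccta
Ppp1r12a: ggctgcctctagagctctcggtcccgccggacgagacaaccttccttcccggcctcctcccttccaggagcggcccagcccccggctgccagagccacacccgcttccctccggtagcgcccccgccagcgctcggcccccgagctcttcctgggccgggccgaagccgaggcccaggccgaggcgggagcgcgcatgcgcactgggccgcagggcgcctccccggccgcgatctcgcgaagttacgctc
Myh9: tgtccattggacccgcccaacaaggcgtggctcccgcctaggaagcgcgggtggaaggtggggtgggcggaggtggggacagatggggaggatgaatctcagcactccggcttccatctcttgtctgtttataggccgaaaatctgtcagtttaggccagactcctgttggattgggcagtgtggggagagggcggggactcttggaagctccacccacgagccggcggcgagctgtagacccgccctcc

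The same windows were read for CpG, the dinucleotide that DNMT1 keeps methylated. *Ppp1r12a* had 40 CpG and *Ppp1cb* 31, against a median of 7 and a 75th percentile of 20 over all windows. *Mylk*, whose window lies at a start inside the annotated gene, had 4. *Ppp1r14a*, with a ratio of 0.996, had 25, and *Myl9* had 20. *Myh9* and *Myh10*, both higher in *Dnmt1*-KO, had 19 and 18. The 2 windows of *Ppp1r12b* had 8 and 16, and those of *Myl6* 4 and 15. Windows above the 75th percentile were therefore not particular to the genes with the lowest ratios, and *Myh11* had no window. Methylation itself was not analysed here.

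Of the 10 genes, 8 had less FPKM in *Dnmt1*-KO, 7 of them by at least 1.5-fold and 4 by at least 2-fold. The first count includes *Ppp1r14a*, whose ratio of nearly 1 crossed to the other side under 3 of 4 other scalings, and the last fell from 4 to 2 when ratios were centred on transcript length. Among the 12758 genes at 1 FPKM or more in both libraries, 52.7% were lower, 10.5% were at least 1.5-fold lower and 2.82% at least 2-fold lower. The median log2 ratio of *Dnmt1*-KO to *Dnmt1*-WT was -0.81 for the 10 genes and -0.03 for all 12758. Summed FPKM of the 10 genes went from 18338.51 to 10872.45, or from 4.27% to 2.36% of all FPKM in the library. Only *Myh9* was at least 1.5-fold higher, as were 12.4% of all genes, and with ratios centred on GC content its log2 ratio of 0.51 was under that fold. *Dnmt1* itself was listed at 11.58 FPKM in *Dnmt1*-WT and 7.58 FPKM in *Dnmt1*-KO.

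**Figure D1:**
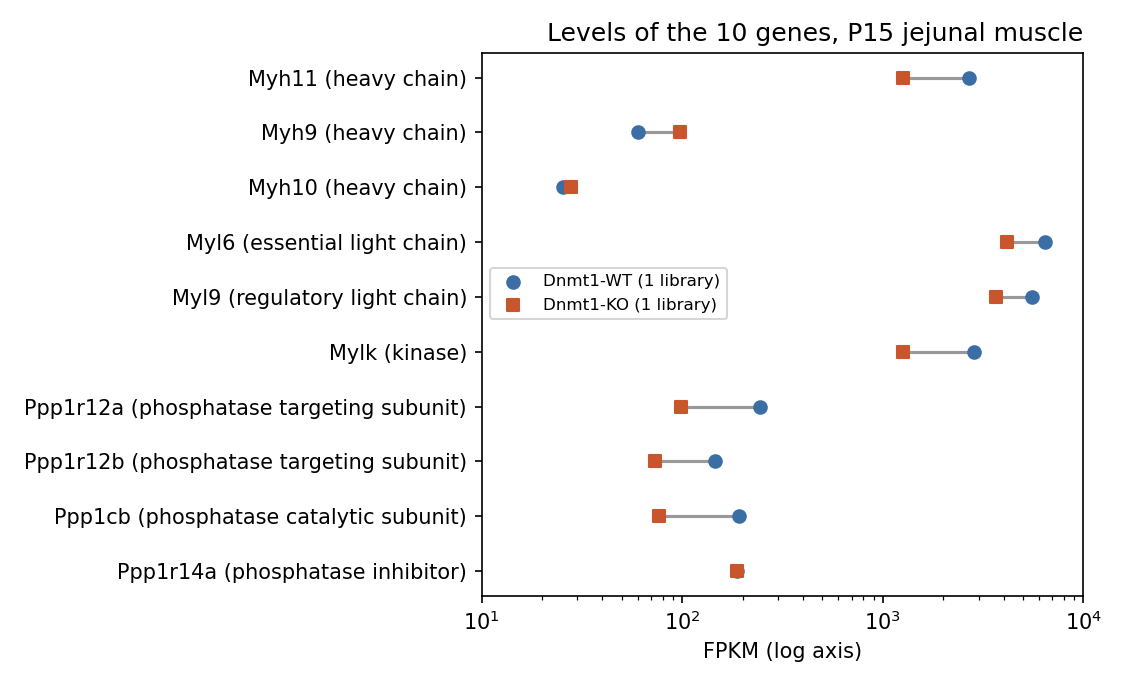
FPKM of each of the 10 genes on a log axis, with a circle for the Dnmt1-WT library and a square for the Dnmt1-KO library (1 library each, no error bars). The light chains, the smooth muscle heavy chain and *Mylk* lie between 1254.06 and 6441.38 FPKM, and only the symbols of *Myh9* and *Myh10* lie further right in Dnmt1-KO.

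Of the heavy chains, *Myh11* (chromosome 16, 14194535 to 14291372 on the minus strand of GRCm38) was the one at a high level. It stood at 2685.29 FPKM in *Dnmt1*-WT, the 8th highest of all genes, and at 1255.51 FPKM in *Dnmt1*-KO, the 35th, a ratio of 0.468. Of the 12758 genes, 2.06% had a lower ratio.

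The non-muscle heavy chains went the other way. *Myh9* (chromosome 15, 77760587 to 77842175, minus strand) was listed at 60.22 FPKM in *Dnmt1*-WT and 96.9 FPKM in *Dnmt1*-KO, a ratio of 1.61. *Myh10* (chromosome 11, 68691559 to 68816632, plus strand) was at 25.37 and 28.0 FPKM, a ratio of 1.10 that lies well within the range of most genes. Within a library these shares do not depend on how the libraries are scaled against each other. *Myh11* made up 96.9% of the FPKM of the 3 genes in *Dnmt1*-WT and 91.0% in *Dnmt1*-KO, and the 2 non-muscle genes together made up 3.09% and 9.05%. The smooth muscle heavy chain thus stayed the main form by far in both libraries. *Myh14*, the remaining non-muscle heavy chain, was low at 7.45 and 8.46 FPKM. Of 7 striated muscle heavy chain genes listed, *Myh7* alone reached 1 FPKM, at 10.18 FPKM in *Dnmt1*-WT and 4.78 FPKM in *Dnmt1*-KO.

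The light chains were the most abundant of the 10 genes. *Myl6* (chromosome 10, 128490860 to 128494145, minus strand), the essential light chain shared by smooth and non-muscle myosin, ranked 1st of all genes in *Dnmt1*-WT at 6441.38 FPKM and 2nd in *Dnmt1*-KO at 4155.65 FPKM. *Myl9* (chromosome 2, 156775420 to 156781658, plus strand), the smooth muscle regulatory light chain and the target of the kinase, ranked 2nd at 5526.94 FPKM and 4th at 3647.37 FPKM. Their ratios, 0.645 and 0.660, were close to each other and above that of *Myh11*. Levels of *Myl6* and *Myl9* per *Myh11* were 2.40 and 2.06 in *Dnmt1*-WT and 3.31 and 2.91 in *Dnmt1*-KO.

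*Myl12a* and *Myl12b*, non-muscle regulatory light chains of near-identical sequence between which reads can be shared, were not lower in the *Dnmt1*-KO library. *Myl12a* was at 124.04 FPKM in *Dnmt1*-WT and 241.22 FPKM in *Dnmt1*-KO, and *Myl12b* at 92.38 and 107.73 FPKM. *Myl9* made up 96.2% of the FPKM of these 3 regulatory light chain genes in *Dnmt1*-WT and 91.3% in *Dnmt1*-KO. Heavy and regulatory light chains therefore showed like shifts in share, each from a dominant smooth muscle form.

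**Figure D2:**
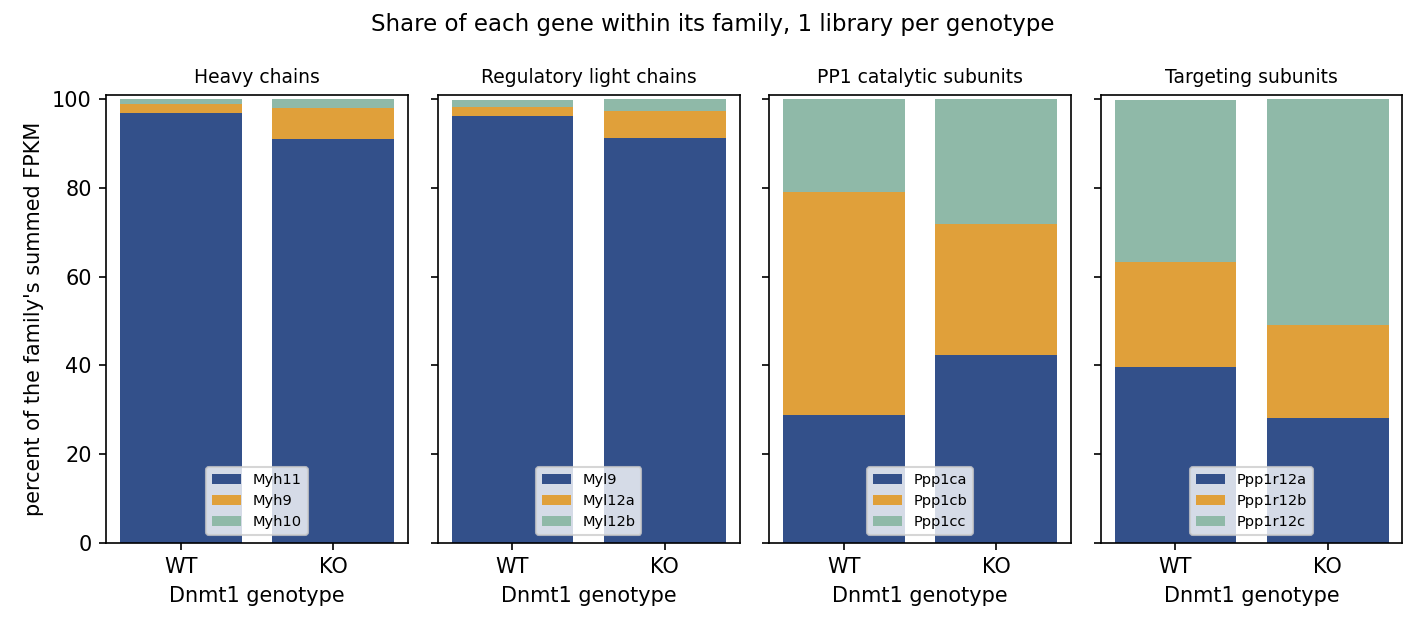
Percent of the summed FPKM that each gene takes within its family in the Dnmt1-WT (WT) and Dnmt1-KO (KO) library, 1 library each, for heavy chains, regulatory light chains, PP1 catalytic subunits and phosphatase targeting subunits. Myh11 and Myl9 take at least 91.0% of their families in both libraries, and Ppp1cb goes from 50.4% to 29.6% of its own.

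*Mylk* (chromosome 16, 34745210 to 35002420, plus strand) encodes myosin light chain kinase and, from a start within the gene, the kinase-free protein telokin, and the table gives 1 value for the symbol. It was listed at 2832.17 FPKM in *Dnmt1*-WT and 1254.06 FPKM in *Dnmt1*-KO, a ratio of 0.443, with 1.63% of all genes below it. *Mylk* and *Myh11* lay side by side in both libraries, ranking 7th and 8th in *Dnmt1*-WT and 36th and 35th in *Dnmt1*-KO. The level of *Mylk* per *Myl9* was 0.512 in *Dnmt1*-WT and 0.344 in *Dnmt1*-KO, a gap that centring on transcript length nearly closed. This is not a level of kinase per substrate, since the part of telokin in the *Mylk* value is unknown.

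In the FPKM as deposited, the catalytic subunit and MYPT1 of myosin phosphatase had the lowest ratios of the 10 genes. Centred on GC content, *Mylk* at -1.25 on the log2 scale lay below *Ppp1cb* at -1.01 and *Ppp1r12a* at -0.98, as did *Myh11*. *Ppp1cb* (chromosome 5, 32458843 to 32517433, plus strand), the catalytic subunit of the enzyme, was at 191.25 FPKM in *Dnmt1*-WT and 76.14 FPKM in *Dnmt1*-KO, a ratio of 0.398. *Ppp1r12a* (chromosome 10, 108162193 to 108284475, plus strand), which encodes the targeting subunit MYPT1, was at 242.83 and 98.36 FPKM, a ratio of 0.405. *Ppp1r12b* (chromosome 1, 134754658 to 134955942, minus strand), the targeting subunit MYPT2, was at 144.98 and 73.16 FPKM, a ratio of 0.505. All 3 ratios were below those of *Myl9* and *Myl6*, but centred on transcript length *Ppp1r12b* at -0.74 lay above *Myl9* at -0.83 on the log2 scale.

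The inhibitor did not follow them. *Ppp1r14a* (chromosome 7, 29289308 to 29293801, plus strand) was listed at 188.08 FPKM in *Dnmt1*-WT and 187.3 FPKM in *Dnmt1*-KO, a ratio of 0.996 with 52.3% of all genes below it. Its level per *Ppp1cb* was 0.983 in *Dnmt1*-WT and 2.46 in *Dnmt1*-KO, while the level of *Mylk* per *Ppp1cb* was 14.8 and 16.5. *Mylk* and *Ppp1cb* were therefore lower by like factors. Of the phosphatase genes among the 10 the inhibitor alone had near the same level in both libraries.

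The other PP1 catalytic subunits, which serve many further PP1 enzymes, differed less between the libraries than *Ppp1cb*. *Ppp1ca* was at 109.06 and 109.07 FPKM and *Ppp1cc* at 78.88 and 71.94 FPKM. *Ppp1cb* made up 50.4% of the FPKM of the 3 genes in *Dnmt1*-WT and 29.6% in *Dnmt1*-KO, where *Ppp1ca* had the largest share, 42.4%. *Ppp1r12c*, the third gene of the targeting family, was at 223.13 and 177.5 FPKM, and its share of the family was 36.5% in *Dnmt1*-WT and 50.9% in *Dnmt1*-KO.

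**Figure D3:**
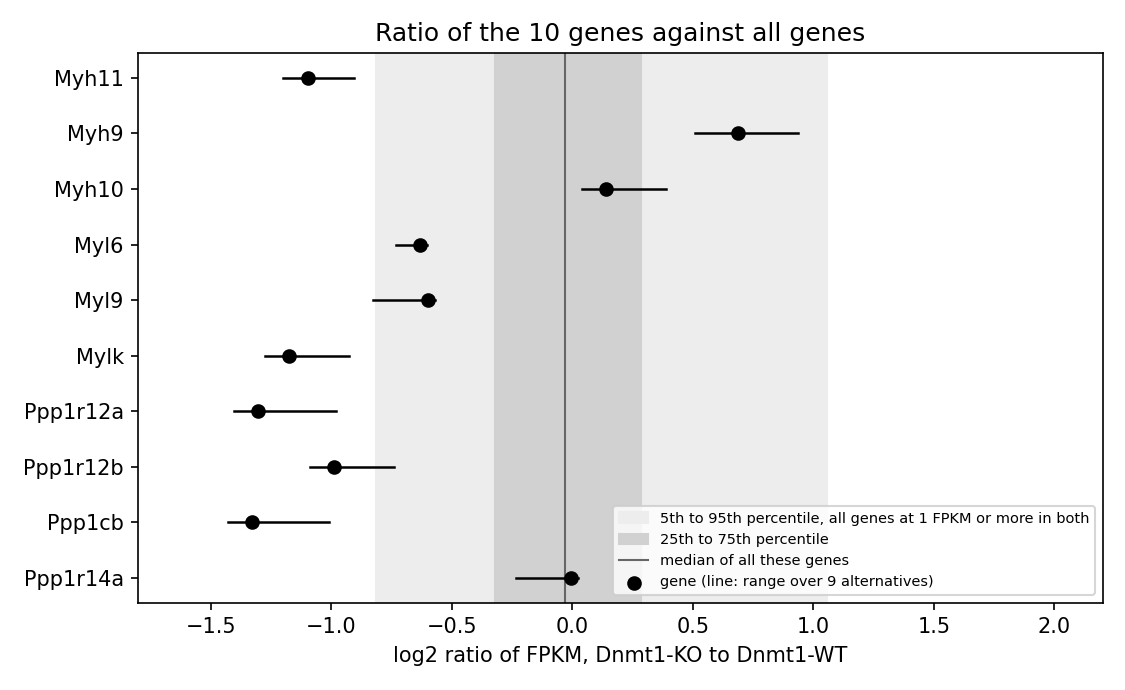
Log2 ratio of FPKM, Dnmt1-KO to Dnmt1-WT, for each of the 10 genes (points), with the range over 9 alternative ways of scaling or centring (lines) and the spread of the 12758 genes at 1 FPKM or more in both libraries (shading). *Myh11*, *Mylk*, *Ppp1r12a*, *Ppp1r12b* and *Ppp1cb* lie below the 5th percentile of all genes, -0.81, in the deposited values.

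The genes were also set against others of high level. The geometric mean of the 2 libraries was 100 FPKM or more for 648 genes, among them 8 of the 10. The level asked for left out *Myh9* (mean 76.4 FPKM) and *Myh10* (mean 26.7 FPKM), the genes of the 10 that were higher in *Dnmt1*-KO. All 8 kept were lower in *Dnmt1*-KO, 7 by at least 1.5-fold and 4 by at least 2-fold. *Ppp1r14a* counts among the 8 at a ratio of 0.996, nearly 1. Of the 648, 38.0% were lower, 7.25% at least 1.5-fold lower, 2.93% at least 2-fold lower and 13.4% at least 1.5-fold higher. Counted from the lowest ratio of the 648, *Ppp1cb* was 4th, *Ppp1r12a* 5th, *Mylk* 11th, *Myh11* 13th and *Ppp1r12b* 20th. Of the 19 abundant genes at least 2-fold lower, 4 were thus among the 10. *Ppp1cb*, *Ppp1r12a* and *Ppp1r12b* were below 100 FPKM in *Dnmt1*-KO. They reached the geometric mean of 100 FPKM through their *Dnmt1*-WT level, so their place among the 648 leans on that library.

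Genes with a log2 ratio most like that of *Myh11* were sought among the other 136 genes with a geometric mean of 500 FPKM or more. The 5 closest were *Rn45s* (ribosomal RNA precursor), *Sparcl1*, *Mylk*, *Tpm2* and *Tpm1*, at distances of 0.04, 0.07, 0.08, 0.09 and 0.28 on the log2 scale. *Tpm1* and *Tpm2* encode tropomyosins. With 2 libraries likeness rests on a single ratio. *Rn45s* was at 2166.37 FPKM in *Dnmt1*-WT and 1038.82 FPKM in *Dnmt1*-KO, and the part of ribosomal RNA in the FPKM of other genes was not tested.

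A list of 11 genes held the thin filament and its partners, with the intermediate filament gene *Des* among them. All 11 were lower in *Dnmt1*-KO, 6 by at least 1.5-fold and 3 by at least 2-fold, with a median log2 ratio of -0.67. Over the 12758 genes the shares were 52.7% lower, 10.5% at least 1.5-fold lower and 2.82% at least 2-fold lower. Their ratios ran from 0.427 for *Smtn* (smoothelin) to 0.893 for *Cnn1* (calponin). *Acta2*, the smooth muscle actin, was at 5408.13 and 4016.24 FPKM. Levels of *Myh11* per *Acta2* were 0.497 in *Dnmt1*-WT and 0.313 in *Dnmt1*-KO, and those of *Mylk* per *Acta2* were 0.524 and 0.312. For the light chains the difference was small, with 1.02 and 0.908 for *Myl9* and 1.19 and 1.03 for *Myl6*. In deposited FPKM, *Myh11* and *Mylk* were thus lower relative to actin, and the light chains nearly kept pace with it. Centred on transcript length, *Myh11* at -0.90 and *Mylk* at -0.93 lay close to *Myl9* at -0.83 on the log2 scale. *Myl6* at -0.61 stayed above them. The ratios to *Acta2* were not recomputed with this centring. Of the factors that drive these genes, *Srf* was at 94.57 and 55.15 FPKM and its coactivator *Myocd* at 29.06 and 18.18 FPKM, both lower in *Dnmt1*-KO. The related coactivator *Mkl1*, found in most cell types, was higher at 19.01 and 23.01 FPKM, as was the weaker *Mkl2*.

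Other genes of light-chain phosphorylation were read from a list of 31, of which 29 were at 1 FPKM or more in both libraries. In *Dnmt1*-KO 18 were lower and 11 higher, 5 at least 1.5-fold lower and 4 at least 1.5-fold higher. Of the 12758 genes, 52.7% were lower, 10.5% at least 1.5-fold lower and 12.4% at least 1.5-fold higher. The median log2 ratio was -0.09 for the list and -0.03 for the 12758 genes. *Calm2* and *Calm3* encode calmodulin, the calcium sensor that activates the kinase. *Calm2* was at 900.85 and 572.11 FPKM, a ratio of 0.635, and *Calm3* at 257.87 and 217.16 FPKM, a ratio of 0.842.

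Kinases and regulators of that list differed among themselves. *Rock1* and *Rock2*, which encode kinases that act on the phosphatase, parted, *Rock1* at 14.41 and 9.03 FPKM and *Rock2* at 19.47 and 19.26 FPKM. *Prkg1*, the cGMP-dependent kinase that relaxes smooth muscle in part through MYPT1, was at 23.98 and 13.62 FPKM, a ratio of 0.568. *Arhgap42*, a GTPase-activating protein, had the lowest ratio of the list, 0.424, at 11.82 and 5.01 FPKM. *Prkcd*, a protein kinase C, had a ratio of 1.62 at 12.37 and 20 FPKM, and *Ppp1r14b*, a relative of the inhibitor *Ppp1r14a*, one of 1.66 at 38.3 and 63.55 FPKM. Past 1.5-fold the list also held *Ppp1r14c* (6.35 and 4.16 FPKM) and *Ppp1r14d* (1.01 and 4.19 FPKM), relatives of the same inhibitor at low levels. *Dapk3* (22.81 and 29.5 FPKM), a kinase able to phosphorylate the light chain without calcium, had a ratio of 1.29. *Ilk* (243.29 and 276.72 FPKM), also on the list, had one of 1.14.

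**Figure D4:**
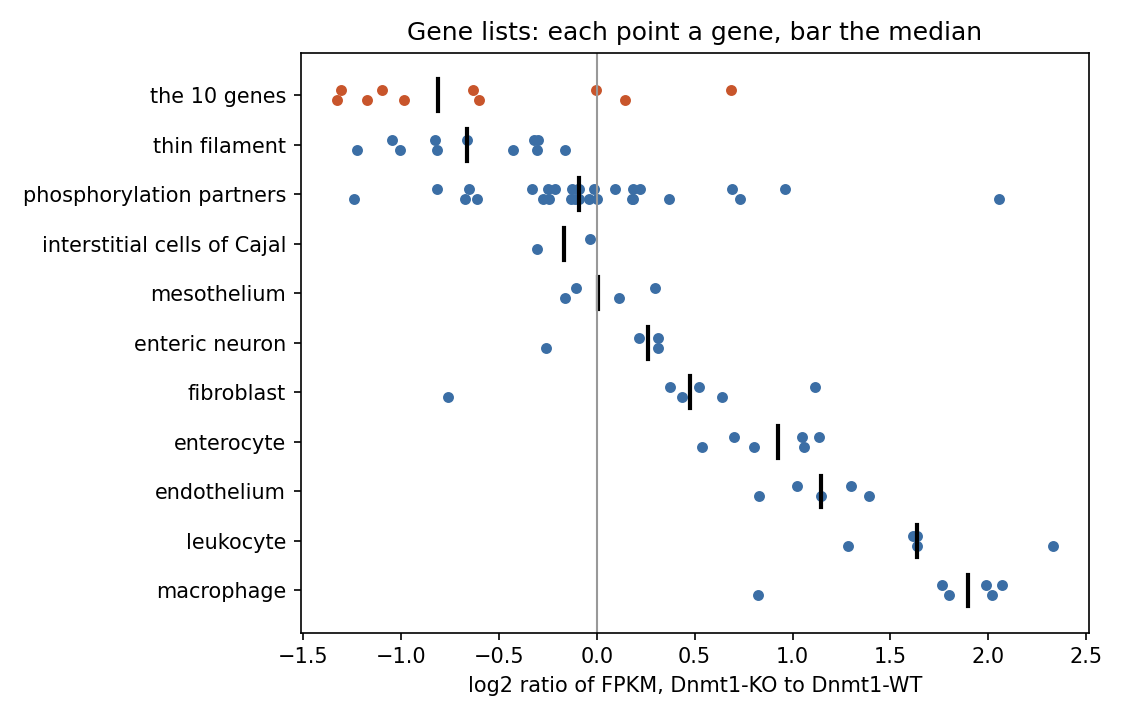
Log2 ratio of FPKM, Dnmt1-KO to Dnmt1-WT, for each gene at 1 FPKM or more in both libraries (points) and the median (bar), for the 10 genes, the thin filament list, the phosphorylation partners and markers of 8 other cell types. The medians drawn run from -0.81 for the 10 genes to 1.89 for macrophage markers.

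Markers of other cell types differed between the libraries too. Defining SMC markers were present in both libraries. The 10 on the list, which are *Srf*, *Myocd* and 8 genes of the thin filament list already described, summed to 14426.38 and 11072.58 FPKM. Summed FPKM of 6 macrophage markers was 130.64 in *Dnmt1*-WT and 475.71 in *Dnmt1*-KO, that of 6 leukocyte markers 26.08 and 85.48, and that of 5 endothelial markers 42.16 and 93.97. All macrophage, leukocyte and endothelial markers listed were higher in *Dnmt1*-KO, with *Ptprc* (CD45) at 0.8 and 2.71 FPKM. For 6 fibroblast markers the sums were 3087.96 and 4843.79, 5 genes higher and *Pdgfra* lower. Markers of enterocytes, cells of the mucosa from which the muscle coat was peeled, were all higher, the 6 summing to 432.62 and 889.98. The 5 adipocyte markers, all higher, summed to 107.8 and 1166.13. Those of mesothelium (241.97 and 238.9), enteric neurons (412.06 and 489.92), enteric glia (59.23 and 88.93), interstitial cells of Cajal (83.95 and 74.51) and skeletal muscle (103.18 and 56.14) included genes on both sides of 1, apart from the 2 of the interstitial cells, which were both lower. *Myh9*, *Myl12a* and *Myl12b* are expressed by most of these cell types, and the part of such cells in their values was not tested.

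Ratios also moved with transcript length. Over 10 equal bins of the longest annotated transcript, the median log2 ratio of all genes went from 0.23 in the shortest bin to -0.25 in the longest. *Mylk*, *Myh9*, *Myh10* and *Ppp1r12b* were in the longest bin, *Myh11* and *Ppp1cb* in the next, and *Ppp1r14a* and *Myl9* in the shortest. After subtraction of the bin medians the log2 ratio was -0.90 for *Myh11*, -0.93 for *Mylk*, -0.83 for *Myl9* and -0.23 for *Ppp1r14a*, and 2 of the 10 genes, *Ppp1cb* and *Ppp1r12a*, were at least 2-fold lower. *Mylk* and *Myh11* thus lay close to *Myl9* after this centring. After centring on GC content they stayed below it, at -1.254 and -1.175 against -0.777. *Myl6* stood in the middle by a transcript of 3040 bases, the longest of its 15 annotated ones, which need not be the one behind its FPKM. The same holds for *Mylk*, placed by a transcript of 7824 bases although its symbol also covers telokin. The part of transcript length in these ratios was not tested.

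**Figure D5:**
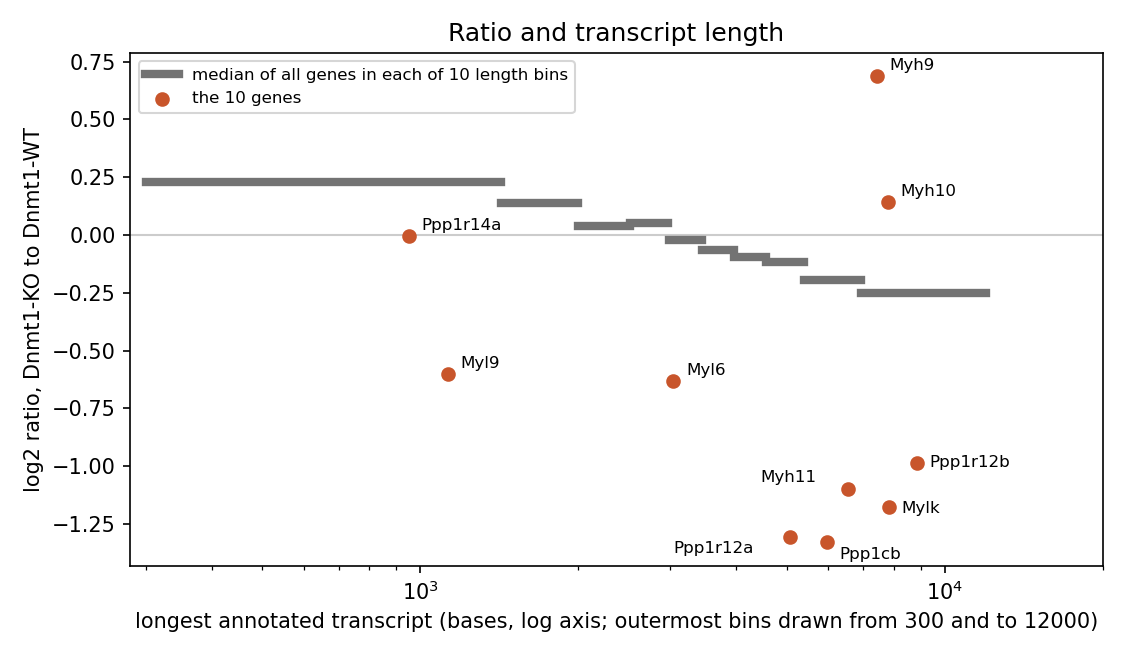
Log2 ratio of FPKM, Dnmt1-KO to Dnmt1-WT, against the length of the longest annotated transcript on a log axis, for the 10 genes (points), with the median of all genes in each of 10 length bins (bars). The bars go from 0.23 to -0.25 with length, and 7 of the 10 genes lie more than 0.5 below the bar of their bin.

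The table also counts the variants of each gene found in a library, without naming them. That number was the same in both libraries for 9 of the 10 genes: 1 for *Myl6*, *Myl9* and *Ppp1r14a*, 2 for *Myh11*, *Myh10* and *Ppp1cb*, 3 for *Myh9* and *Mylk*, and 4 for *Ppp1r12a*. *Ppp1r12b* had 7 in *Dnmt1*-WT and 5 in *Dnmt1*-KO. Of the 12758 genes, 14.5% had fewer variants in *Dnmt1*-KO and 12.6% had more, so a count of 1 in 10 is near what all genes gave. Splice forms of *Myh11* that differ in motor speed or tail cannot be read from a count that stayed at 2. Of the 10 genes, *Ppp1cb* shares 17.5% of its exonic bases with *Gm43312*, an annotated gene on the same strand, and *Mylk* and *Ppp1r12b* share up to 4.87% and 4.74% with single genes on the opposite strand. Whether counting used strand is not stated, so reads there could belong to either gene.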

How the data were processed

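mRNA of the P15 jejunal muscle coat was sequenced for the authors from TruSeq libraries, 1 per genotype. Their reference genome was GRCm38/mm10, and the submitters' processing notes name TopHat 1.4.1 and Cufflinks 2.0.2, with their settings not given in the sources used here. The deposited values are FPKM per gene, with the number of variants per library and the authors' own ratio, which was not used. No scaling between libraries is stated, and FPKM summed to 429698 in *Dnmt1*-WT and 460845 in *Dnmt1*-KO. The FPKM have 2 decimals, with a lowest value above 0 of 0.03. Reads per gene are not given beside them and were not derived from them, so depth per gene is unknown and no interval is given.

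Plain ratios of *Dnmt1*-KO to *Dnmt1*-WT FPKM were computed for all genes, without a pseudocount. No test was made. Background shares were counted over genes at 1 FPKM or more in both libraries and over genes with a geometric mean of 100 FPKM or more. Counting was tested on simulated data. Positions and transcript lengths came from GENCODE M21 (GRCm38), in which 17204 symbols, 94.7%, have a length, and promoters from RefSeq. The genes named are the 10, list genes at 10 FPKM or more in a library, and the 5 genes nearest *Myh11*. *Dnmt1*, the targeted gene, was named as a check of the labels. *Myh14*, *Mkl2*, *Ppp1r14c*, *Ppp1r14d* and *Ptprc* fall outside this rule and were named after their values were seen, as were the within-library ratios to *Acta2* and *Myh11* and the PP1 and targeting subunit shares. The 10 genes and the lists were chosen with earlier results of these data known. Scalings, pseudocounts, centring and filters were varied. Python 3.11.15, numpy 2.4.6, pandas 2.3.3 and matplotlib 3.10.9 were used. Some results are not reported here.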

Additional observations from a re-analysis of the deposited data

How the results depend on the processing

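The 10 genes were recomputed under 9 alternatives: 4 scalings of the libraries, pseudocounts of 0.1 and 1, and centring on transcript length, GC content or expression level. *Myh11*, *Mylk*, *Myl6*, *Myl9*, *Ppp1r12a*, *Ppp1r12b* and *Ppp1cb* were lower and *Myh9* and *Myh10* higher under all 9. *Ppp1r14a* lay on the other side of 1 under 3, with log2 ratios from -0.23 to 0.03. The median log2 ratio of the 10 ran from -0.91 to -0.78. Genes at least 1.5-fold lower numbered 6 in place of 7 under 3 scalings, since *Myl9* sits near that fold. Genes at least 2-fold lower numbered 2 after length centring, 3 after GC centring and 5 after centring on expression level or division by the FPKM sum, counts chosen after seeing the data. Division by the FPKM sum shifted the median of all genes by -0.10. Over all genes above 0 FPKM in both libraries, 4.98% were at least 2-fold lower and 19.7% at least 1.5-fold higher, and over genes at 10 FPKM or more in both, 1.85% and 7.96%. With every listed heavy chain or regulatory light chain gene in the denominator, *Myh11* made up 96.3% and 90.0%, and *Myl9* 96.2% and 91.2%. A value without an error was taken as moved past a factor of 1.5. Without replicates, no spread could be set beside any of these.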

Other observations

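Striated muscle light chains, which enter the comparisons above only in the wider regulatory light chain sum and, for *Mylpf*, in the skeletal muscle markers, were listed at low levels. *Myl1*, a light chain of fast skeletal muscle, was at 30.66 FPKM in *Dnmt1*-WT and 33.44 FPKM in *Dnmt1*-KO. *Myl4*, the atrial and embryonic essential light chain, was at 4.78 and 9.3 FPKM, and *Myl7*, the atrial regulatory light chain, at 0.36 and 2.91 FPKM. *Mylpf*, of fast skeletal muscle, was at 0.81 and 1.78 FPKM. *Myl2* was listed at 0 in both libraries. Against *Myl9* at 5526.94 and 3647.37 FPKM these light chains are a small part of the myosin message. *Myl2*, *Myl4*, *Myl7* and *Mylpf* were named after their values were seen.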
